A study of Mus musculus with 3 samples.

Results

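Voltage-gated sodium and calcium channel subunits were examined in Ret-EGFP cells of embryonic mouse dorsal root ganglia (DRG), as 38 named genes of the 41388 counted. The members are 9 Nav alpha, 3 Nav beta, 10 Cav alpha1, 4 alpha2delta, 4 Cav beta and 8 gamma (Cacng) genes, taken by symbol and matched to 1 Ensembl identifier each. RNA came from 3 pools of sorted cells, libraries B, C and D, made from 340, 300 and 60 ganglia of 17, 15 and 3 embryos at 12.5 days post coitum. All pools were C57BL/6 and of mixed sex, and they form 1 group with no second condition. Ganglia were taken from the lower thoracic levels down to the first sacral one. EGFP marks cells in which the receptor gene Ret is active. The sample labels name a Ret-EGFP transgene, while the series text places EGFP in one Ret allele of heterozygous embryos. Which of these holds is not settled by the sources used here. Each library is a pool, so the spread given below is between pools and not between embryos.

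Voltage-gated sodium (Nav) channels open on depolarisation and carry the upstroke of the action potential. Each has a pore-forming alpha subunit, and beta subunits with a single membrane span modify its gating and placement. Voltage-gated calcium (Cav) channels turn depolarisation into calcium entry. Their alpha1 subunit forms the pore, a cytosolic beta and an extracellular alpha2delta subunit carry it to the membrane, and gamma subunits are claudin-like proteins of which several serve AMPA receptors instead. In adult DRG neurons Nav1.7, Nav1.8 and Nav1.9 are known for setting the excitability of nociceptors, Cav2.2 for transmitter release at their central terminals, and Cav3.2 for low-threshold calcium currents.

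The classes compared below rest on a few pore residues, so the codons are shown from GENCODE M21 transcripts (GRCm38), 5′ to 3′ along the coding strand. In domain I of Nav channels an aromatic residue gives high affinity for the blocker tetrodotoxin, and serine takes its place in the resistant channels Nav1.8 and Nav1.9. Capitals mark that codon within 27 bases of coding sequence. The windows were found by a search for the surrounding residues, and each lies within 1 exon.
Scn9a, chr2:66548989-66549015, minus strand: atgactcaggacTACtgggagaacctt
Scn3a, chr2:65521801-65521827, minus strand: atgactcaagacTACtgggagaacctt
Scn2a, chr2:65688424-65688450, plus strand: atgactcaagacTTCtgggaaaacctt
Scn8a, chr15:100971626-100971652, plus strand: atgactcaggacTACtgggagaactta
Scn10a, chr9:119666375-119666401, minus strand: atgacgcaggacTCCtgggaacggctg
Scn11a, chr9:119805668-119805694, minus strand: atgactcaagacTCCtgggagaagctt
TAC and TTC encode the aromatic residues tyrosine and phenylalanine, and TCC encodes serine.

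The pore loop of domain III holds the residue that is lysine in sodium channels, glutamate in high-voltage-activated calcium channels and aspartate in T-type calcium channels. Capitals mark it in the same way.
Scn9a, chr2:66493916-66494611, minus strand: gttgcaacgttcAAGggctggatggat
Scn10a, chr9:119618874-119622766, minus strand: gtggcaaccttcAAAggctggatggac
Scn7a, chr2:66683297-66684017, minus strand: gtggcaacatttAATggatggatcagt
Cacna1b, chr2:24650628-24651106, minus strand: gtgtccacgggaGAGgggtggcccatg
Cacna1a, chr8:84581326-84583559, plus strand: gtgtccacaggaGAGggctggccacag
Cacna1d, chr14:30099243-30100722, minus strand: gtctcaacttttGAGggctggcccgcg
Cacna1h, chr17:25383496-25383522, minus strand: ctgtcatccaagGATggctgggtaaac
AAG and AAA encode lysine, GAG glutamate and GAT aspartate. In Scn7a, which encodes the sodium-sensing channel Nax, the codon is AAT, for asparagine. Of the windows shown here, that of Cacna1h lies in 1 exon and the others cross an exon junction, so their coordinates include an intron.

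Of the 38 members, 20 reached the detection limit of 1 TPM in B, C and D alike, against 28.7% of all genes in the files. TPM (a length-corrected share of transcripts) is the count divided by the counted gene length, scaled to the same total in every library. By mean level, 10 members stood at 10 TPM or more, 12 between 1 and 10 TPM and 16 below 1 TPM, and 4 of these had no count in any library. Detected members came to 7 of 9 Nav alpha, 2 of 3 Nav beta, 3 of 10 Cav alpha1, 2 of 4 alpha2delta, 3 of 4 Cav beta and 3 of 8 gamma genes. The highest member was Cacnb3, with a mean of 104 TPM, then Scn9a, Scn3b and Cacng4. Few neighbours in the order of all members differed beyond their spread. Cacnb3 over Scn9a gave a mean log2 ratio of 0.19 ± 1.05 (SD, n = 3), and Scn9a over Scn3b 1.13 ± 1.16. Cacng4 over Scn7a, the next in order, did exceed it (0.74 ± 0.58). A difference is called beyond the spread here when all 3 libraries share its direction and the mean log2 ratio of TPM + 0.1 exceeds its SD. The smallest two-sided p that exact sign flipping of 3 values can give is 0.25, so no test accompanies these orders.

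**Figure D1:**
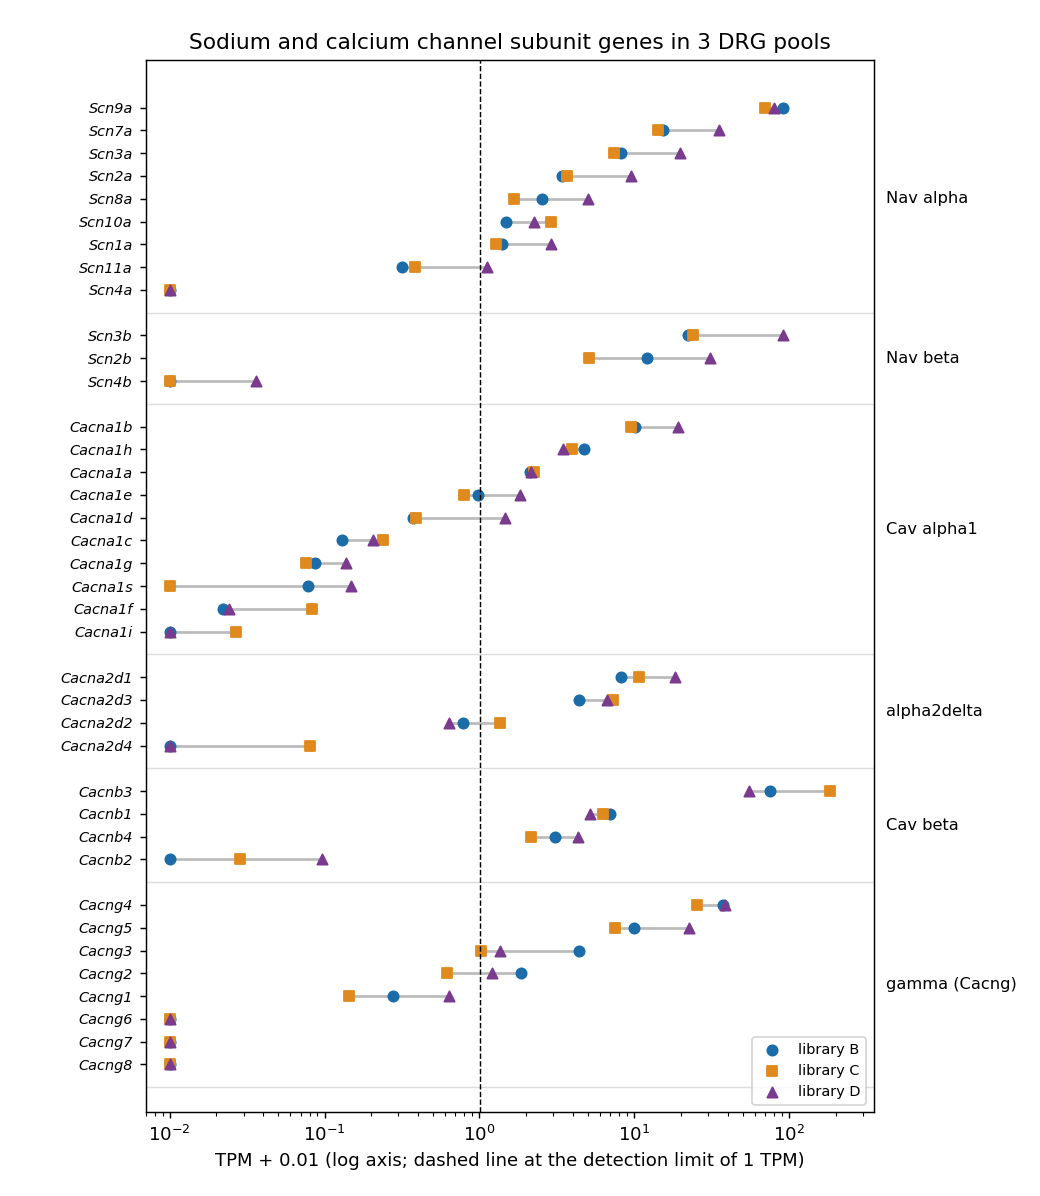
TPM of each member on a log axis, with 0.01 added so that zeros can be drawn; circles, squares and triangles are libraries B, C and D, grey lines join the lowest and the highest, and the dashed line is the detection limit of 1 TPM. Each family is led by a single gene (Scn9a, Scn3b, Cacna1b, Cacna2d1, Cacnb3, Cacng4), and Scn4a, Cacng6, Cacng7 and Cacng8 sit at zero in all 3 libraries.

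Total counts ran from 11666241 in C to 20966139 in D. As a check for a library deposited more than once, counts were compared between libraries, and each pair differed by more than counting error (chi-square per degree of freedom 133 to 318). Ret, the reporter's gene, stood at 26.9 to 60.9 TPM. All 10 neuron markers and 9 of 10 sensory neuron markers reached 1 TPM in every library, and so did 9 of 9 glia and Schwann cell precursor, 6 of 8 sympathetic and chromaffin and 5 of 7 erythroid markers. Of the spinal progenitor and interneuron markers 0 of 6 were detected, with Olig2, Lbx1 and Lhx5 at 0 counts, and of the endothelium markers 0 of 5. On the remaining lists, detected markers were 2 of 5 for motor neurons, 3 of 6 for mesenchyme and 3 of 5 for macrophages. They were 2 of 8 for skeletal muscle and 2 of 6 for cardiac and smooth muscle. The 2 on the motor neuron list were Isl2 and Slc18a3, while Mnx1 and Chat stayed under 1 TPM in every library. Slc5a7 reached 1 TPM only in D. The mesenchyme markers summed to 20.1, 17.9 and 82.1 TPM in B, C and D. Glia and Schwann cell precursor markers were also highest in D (3054, 1515 and 4793 TPM). Erythroid markers (2799, 1473 and 402 TPM) and sympathetic and chromaffin markers (292, 233 and 132 TPM) were lowest in D. Library D had the highest TPM for 63.1% of all detected genes, which sets the scale for the values of D below. In such bulk samples, fewer cells of a type and less RNA per cell cannot be told apart.

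Among the sodium channel pores, Scn9a was far above the rest. Scn9a (ENSMUSG00000075316, chr2:66480080-66634962) encodes Nav1.7, a channel that amplifies small depolarisations in sensory and sympathetic neurons. It was measured at 90.9, 69.2 and 80.1 TPM in B, C and D. These values lay close together, with a coefficient of variation of 13.6% against a median of 44.5% over all detected genes. Scn9a held 64.6 ± 11.7% (SD, n = 3) of the summed Nav alpha TPM. That share was 73.7%, 68.7% and 51.3% in B, C and D, so it was lowest in D, where other Nav genes stood higher.

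Scn7a and Scn3a came next. Scn7a, whose product Nax responds to extracellular sodium rather than to voltage, stood at 15.3, 14.3 and 35.4 TPM in B, C and D. Scn3a, which encodes the embryonic channel Nav1.3, was measured at 8.18, 7.41 and 19.7 TPM in B, C and D. B and C were alike for both genes and D was the highest. Scn9a exceeded Scn7a by a log2 ratio of 2.00 ± 0.73 (SD, n = 3), and Scn7a exceeded Scn3a by 0.89 ± 0.05. Glia are known to express Scn7a, and the summed TPM of the 9 glia markers was 3054, 1515 and 4793 in B, C and D. The part of these cells in the Scn7a level was not tested.

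The remaining tetrodotoxin-sensitive genes were lower. Scn2a, the gene of Nav1.2 in unmyelinated axons, had a mean of 5.50 ± 3.45 TPM (SD, n = 3). Scn8a, which encodes Nav1.6 of mature nodes and axon initial segments, stood at 3.07 ± 1.76 TPM, and Scn1a, the gene of Nav1.1, at 1.84 ± 0.89 TPM. The order Scn3a, Scn2a, Scn8a held in all 3 libraries, with log2 ratios of 1.10 ± 0.13 for Scn3a over Scn2a and 0.80 ± 0.35 for Scn2a over Scn8a. Scn10a did not differ beyond the spread from Scn8a or from Scn1a, its neighbours in the order. Scn4a, the skeletal muscle channel, had 0 counts in each library, which allows up to 0.047, 0.071 and 0.055 TPM in B, C and D.

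The tetrodotoxin-resistant channels, whose serine codons are printed above, took a small part. Scn10a, which encodes Nav1.8, was measured at 1.47, 2.88 and 2.24 TPM in B, C and D, from 85, 111 and 111 counts. Scn11a, the gene of Nav1.9, had 16, 13 and 50 counts, or 0.30, 0.37 and 1.11 TPM. Scn10a thus passed the detection limit in every library and Scn11a only in D. Together they held 2.27 ± 0.90% (SD, n = 3) of the summed Nav alpha TPM, against 81.3 ± 5.63% for the 6 tetrodotoxin-sensitive genes. Scn9a stood above Scn10a by a log2 ratio of 5.16 ± 0.66.

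Of these genes, 5 lie within 1328 kb on chromosome 2: Scn3a, Scn2a, Scn1a, Scn9a and Scn7a in order of position. This cluster gave 119, 95.8 and 148 TPM in B, C and D, and it carried nearly all of the Nav alpha total. Their coding sequences are alike, which bears on read assignment. Of the 50-base words in annotated transcripts, 6.49% for Scn3a, 5.62% for Scn2a, 4.04% for Scn9a and 4.03% for Scn1a also occur in another member, and none do for Scn7a. The authors' treatment of reads with several matches is not stated. Scn9a also shares 180 exon bases with the antisense gene Gm13629, which itself had 1, 1 and 3 counts.

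**Figure D2:**
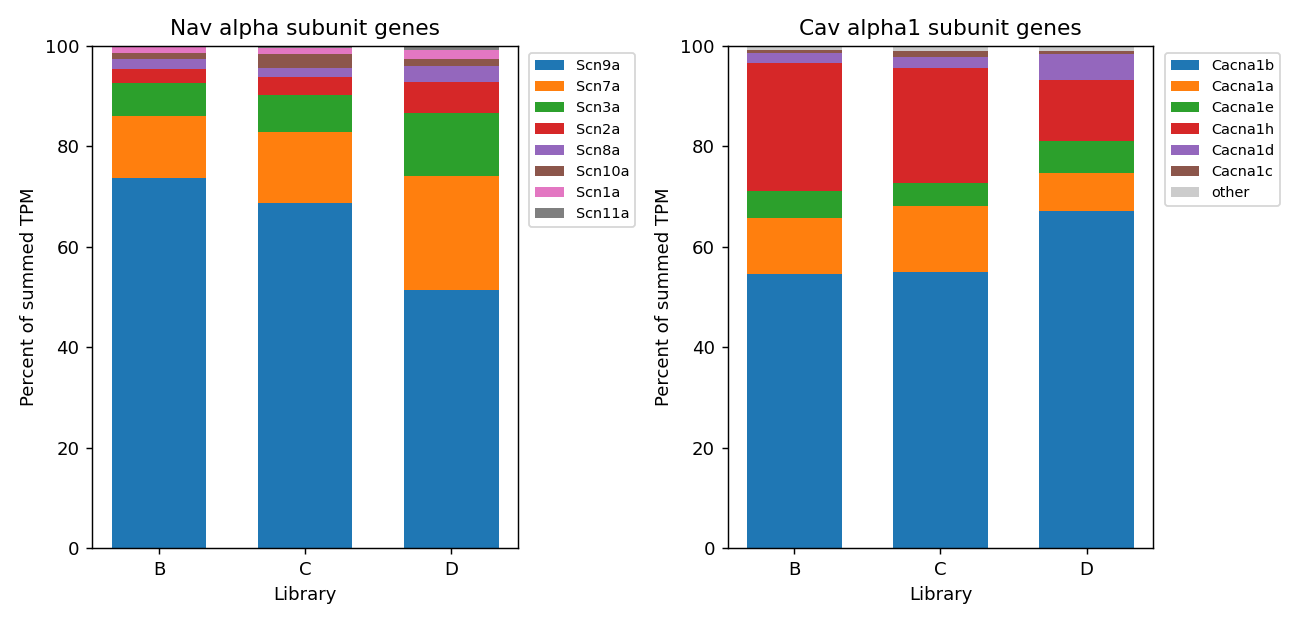
Stacked bars give each gene's percent of the summed TPM of its family in libraries B, C and D, for Nav alpha on the left and Cav alpha1 on the right. Scn9a fills 73.7%, 68.7% and 51.3% of the Nav alpha bars and Cacna1b 54.5%, 55.0% and 67.1% of the Cav alpha1 bars.

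Of the Nav beta genes, Scn3b and Scn2b were detected and Scn4b was not. Scn3b, whose product associates with the alpha subunit without a disulphide bond, stood at 22.2, 24.0 and 90.8 TPM in B, C and D. Scn2b, whose product binds through a disulphide bond, was measured at 12.0, 5.08 and 30.5 TPM. D was the highest library for both, and for Scn2b B and C also stood apart. In each library Scn3b was the higher, with a log2 ratio of 1.56 ± 0.67 (SD, n = 3). Scn4b, which adjoins Scn2b on chromosome 9 and whose product underlies resurgent current in adult neurons, had 0, 0 and 1 counts. The summed Nav beta TPM was 0.277, 0.288 and 0.778 of the Nav alpha sum in B, C and D.

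The calcium channel pores summed to 21.4 ± 6.14 TPM (SD, n = 3), and the Nav alpha sum was 6.01 ± 0.60 times as high. Without Scn9a that ratio was 2.09 ± 0.51. Cacna1b (ENSMUSG00000004113, chr2:24603887-24763152), which encodes the N-type channel Cav2.2 of presynaptic terminals, was the highest with 10.1, 9.44 and 19.1 TPM in B, C and D. B and C were alike and D was the highest. It held 58.9 ± 7.14% of the summed alpha1 TPM. Cacna1a, the P/Q-type gene that takes over release at many mature synapses, stood at 2.10, 2.25 and 2.14 TPM, the smallest spread of any detected member (coefficient of variation 3.64%). Cacna1e, the R-type gene, was measured at 0.97, 0.78 and 1.82 TPM. The 3 Cav2 genes, whose channels act in transmitter release, together held 74.9 ± 5.36% of the alpha1 sum. Cacna1b exceeded Cacna1a by a log2 ratio of 2.45 ± 0.57.

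Of the T-type genes, Cacna1h was detected. Cacna1h, which encodes Cav3.2, stood at 4.71, 3.93 and 3.44 TPM in B, C and D, while Cacna1g and Cacna1i had at most 0.13 and 0.02 TPM. Cacna1h thus lay within a narrow range in which D was the lowest. The Cav3 share was 25.9%, 23.4% and 12.6% in B, C and D, with a mean of 20.6 ± 7.07% (SD, n = 3). Cacna1b exceeded Cacna1h by a log2 ratio of 1.59 ± 0.74, and Cacna1h exceeded Cacna1a by 0.86 ± 0.24.

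L-type genes were low. Cacna1d, which encodes Cav1.3, a channel that opens at modest depolarisation, had 30, 21 and 104 counts, or 0.36, 0.38 and 1.46 TPM in B, C and D. Cacna1c, the gene of the cardiac and neuronal channel Cav1.2, stood at 0.12, 0.23 and 0.20 TPM. TPM divides by the whole counted length, which is 21191 bases for Cacna1c and 24813 for Cacna1e, while their longest coding frames in GENCODE M21 have 2222 and 2273 codons. Cacna1f of the retina and Cacna1s of skeletal muscle had at most 4 and 7 counts. The Cav1 share was 4.45 ± 1.72% (SD, n = 3). Exons of Cacna1d share 518 bases with the opposite-strand gene Chdh, which had 0, 0 and 2 counts.

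Of the alpha2delta genes, Cacna2d1 and Cacna2d3 were detected. Cacna2d1, which encodes the binding site of gabapentin and pregabalin, was measured at 8.16, 10.7 and 18.4 TPM in B, C and D. Cacna2d3, whose product has been tied to heat nociception, stood at 4.41, 7.31 and 6.64 TPM. Cacna2d1 was the higher in each library, by a log2 ratio of 0.96 ± 0.46 (SD, n = 3). Cacna2d2, the other gabapentin-binding subunit, reached 1 TPM only in C, with 1.35 TPM against 0.77 in B and 0.62 in D. Cacna2d4 had 0, 4 and 0 counts. Per length, Cacna2d1 and Cacna1b did not differ beyond their spread (log2 ratio -0.06 ± 0.24), and the family sums stood at 0.919 ± 0.207 for alpha2delta over alpha1.

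The Cav beta family was led by Cacnb3, whose product traffics N-type and L-type channels in neurons. Cacnb3 (ENSMUSG00000003352, chr15:98632220-98644530) was measured at 74.9, 183 and 55.0 TPM in B, C and D, from 2108, 3426 and 1322 counts. C stood apart on the high side, 3.33 times as high as D. It held 89.6 ± 5.38% of the summed beta TPM (SD, n = 3). Cacnb1, the beta subunit of skeletal muscle that neurons also express, stood at 6.15 ± 0.91 TPM and Cacnb4, a neuronal subunit, at 3.17 ± 1.09 TPM. Cacnb3 exceeded Cacnb1 by a log2 ratio of 3.88 ± 0.84. Cacnb2, the main subunit of the heart, had 0, 1 and 6 counts. The beta sum was 4.59, 11.2 and 2.27 times the alpha1 sum in B, C and D, and without Cacnb3 it was 0.543, 0.490 and 0.337 of it.

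Exons of Cacnb4 share 1433 bases with A430018G15Rik on the opposite strand, which had 4, 4 and 2 counts. In all, 10 of the 38 members share exon bases with another gene. The cDNA kit that the labels name, SMARTer Ultra Low Input, does not mark strand, so reads of opposite-strand partners cannot be told apart.

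Of the gamma genes, those of one chromosomal cluster held most of the TPM and those of another had no counts. Cacng4, which encodes an auxiliary subunit of AMPA receptors, was measured at 37.2, 25.3 and 38.7 TPM in B, C and D. Its neighbour Cacng5, of the same kind, stood at 10.0, 7.52 and 22.5 TPM. C was the lowest library for both, and Cacng4 exceeded Cacng5 by a log2 ratio of 1.47 ± 0.60 (SD, n = 3). Both lie with the muscle gene Cacng1 within 212 kb on chromosome 11, and Cacng1 had only 3, 1 and 6 counts. Cacng7, Cacng8 and Cacng6 lie within 103 kb on chromosome 7 (chr7:3332955-3435667) and had 0 counts in all 3 libraries. Per library a count of 0 allows at most 0.264 TPM, the limit for Cacng8 in C. Cacng3 stood at 4.35, 1.02 and 1.35 TPM and Cacng2, the gene of stargazin, at 1.85, 0.61 and 1.20 TPM, so B was the highest library for both.

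Of the genes named above for skeletal muscle, Scn4a had 0 counts and Cacna1s and Cacng1 stayed under 1 TPM, while Cacnb1 was detected at 7.00, 6.26 and 5.18 TPM. The 8 skeletal muscle markers summed to 32.5, 10.3 and 28.7 TPM in B, C and D, with 2 of 8 detected, Tnnc2 at 0 and Myod1 at 0, 1 and 2 counts. Cacna1s had 4, 0 and 7 counts and Cacng1 3, 1 and 6 in B, C and D. Both were lowest in C, as the sum of the markers was, but C was also the shallowest library. The match was partial, since both genes were highest in D and the sum of the markers in B. The part of muscle cells in these counts was not tested.

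The pools were then compared with each other, since D came from 3 embryos and B and C from 17 and 15. The comparison of D against B and C used edgeR's quasi-likelihood test, leaves 1 residual degree of freedom and takes the spread of the lone library to equal that of the others. Of the members, 26 passed the filter on low counts. None passed the Benjamini-Hochberg adjusted p of 0.05 in library D, nor did any of all 15727 genes tested (0%). DESeq2 called 0 of the 20 members to which it gave an adjusted p, against 6.38% of the genes it tested. At an unadjusted p under 0.05, 1 member was higher (Scn3b) and 1 lower (Cacnb3), against 11.2% and 8.22% of all genes tested. The members' counts were not above these shares.

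The log2 ratio of Scn3b in D was 1.27 ± 0.42 (approximate SE; edgeR adjusted p = 0.22, unadjusted p = 0.023), with D the highest of the 3 libraries. For Cacnb3 it was -1.95 ± 0.69 (adjusted p = 0.23, unadjusted p = 0.029), with D the lowest. Without the filter on low counts edgeR called Cacnb3 lower in D (adjusted p = 0.019), when it called 6.51% of all genes and 2.55% lower. Scn2b (1.15 ± 0.59) and Cacna1d (1.28 ± 0.69) had positive ratios and Cacnb1 (-1.05 ± 0.54) and Cacna1h (-1.03 ± 0.51) negative ones, and none of these passed. For Scn9a the direction depended on the scale. Its TPM in D lay between those of B and C, its CPM was lowest in D (579, 454 and 376 in B, C and D), and its edgeR log2 ratio was -0.70 ± 0.41 (adjusted p = 0.36). Cacng4, highest in D by TPM, had an edgeR log2 ratio of -0.39 ± 0.49 (adjusted p = 0.67).

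Gene length moved with the difference between D and the other pools, and its part in the members' ratios was tested only by taking out its trend. Over all genes tested, the median log2 ratio was -0.02 in D, and over the 4782 genes of 5000 bases or more it was 0.57, with 72.1% of these higher. The members are long, with a median counted length of 7190 bases against 3478 for all detected genes. Over the 26 members tested the median log2 ratio was 0.14, with 14 of 26 higher, against 49.5% of all genes. With a smooth trend in gene length taken out, the median was -0.46 and 6 of 26 were higher, against a median of -0.08 and 47.2% higher over all genes. Again no member passed (0% of all genes did). At an unadjusted p under 0.05 there were 5, namely Scn9a, Cacna1a, Cacna1h, Cacnb1 and Cacnb3, against 13.1% of all genes. Scn3b, Scn2b, Cacna1d, Scn11a, Cacng5 and Scn2a stayed above 0. Scn3a, Scn7a, Scn8a, Scn1a, Cacna1e, Cacna1b, Cacna2d1 and Cacnb4 changed sign.

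**Figure D3:**
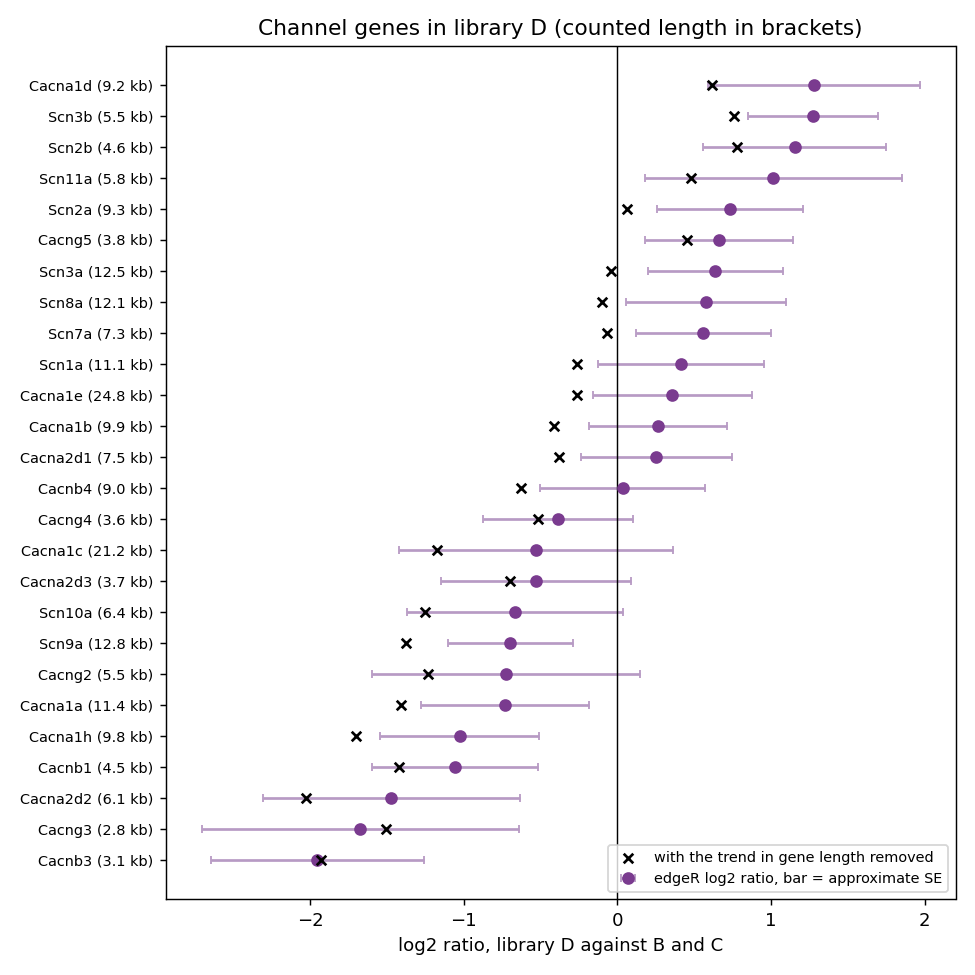
Log2 ratio of library D against B and C for the 26 tested members (dots, with approximate SE as bars) and the same with the trend in gene length removed (crosses); the counted length stands after each symbol. Scn3b and Cacnb3 lie farthest from 0 relative to their errors, and most crosses lie to the left of their dots.

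Library C against B and D gave no called member either, against 0.782% of all genes called by edgeR, and DESeq2 called none (1.4% of all genes it tested). There 10 of 26 members were higher, against 45.4% of all genes. Cacnb3 was the only member with an unadjusted p under 0.05 (6.91% of all genes), at a log2 ratio of 1.83 ± 0.91 (adjusted p = 0.68, unadjusted p = 0.043), and 4.22% of all genes were higher at that level. Its 3426 counts in C came from the shallowest library. In library B against C and D edgeR called 0 members and 0% of genes, 0 members had an unadjusted p under 0.05 (1.11% of all genes did), and DESeq2 called 0 members (0.00636% of all genes). In B 9 of 26 members were higher, against 40.5% of all genes. The largest value there was 2.16 ± 1.22 for Cacng3 (adjusted p = 1.00). The 3 comparisons share libraries and are not independent.

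Spread between pools was about that of other genes. Detected members had a median coefficient of variation of 45.7%, against 44.5% for all detected genes. D was the highest library for 12 of 20 detected members, near the 63.1% of all detected genes. Among those 12 were all sodium channel genes detected other than Scn9a and Scn10a, and also Cacna1b, Cacna2d1, Cacnb4, Cacng4 and Cacng5. In TPM, the ratio of the highest to the lowest library ran from 1.07 for Cacna1a to 6.01 for Scn2b.

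Proteins that bind, place or regulate these channels were taken from a list of 51 names, of which 50 matched and 33 were detected (28.7% of all genes were). The highest was Calm2, a calmodulin gene whose product is a calcium sensor of both channel kinds, at 3559 ± 866 TPM (SD, n = 3). Dpysl2, which encodes CRMP2, a Cav2.2 partner and growth cone protein, stood at 1352, 516 and 7972 TPM in B, C and D. S100a10, an annexin partner that carries Nav1.8 to the membrane, stood at 2973, 2487 and 1436 TPM. Gnb1, a G protein beta subunit of the kind that inhibits Cav2 channels, was measured at 768, 599.5 and 4299 TPM. D was the highest library for Dpysl2 and Gnb1 and the lowest for S100a10.

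Fgf13, a fibroblast growth factor homologous factor that binds the tail of Nav channels, stood at 489, 488 and 726 TPM in B, C and D. It was far above its relatives Fgf12 (21.6 ± 8.11 TPM; SD, n = 3), Fgf11 (8.13 ± 1.63 TPM) and Fgf14 (0.75 ± 0.96 TPM). Of the axon initial segment genes, Ank3 had 7.13 ± 3.41 TPM and Nfasc 5.47 ± 2.97 TPM, while Sptbn4, the spectrin of mature initial segments, was at 0.09 ± 0.04 TPM. Stac, an adaptor of L-type channels, stood at 10.5 ± 3.60 TPM. The ryanodine receptor genes, whose products release calcium from stores, were each under 0.3 TPM in every library. Nalcn, the sodium leak channel gene, stood at 0.67, 0.30 and 2.28 TPM.

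**Figure D4:**
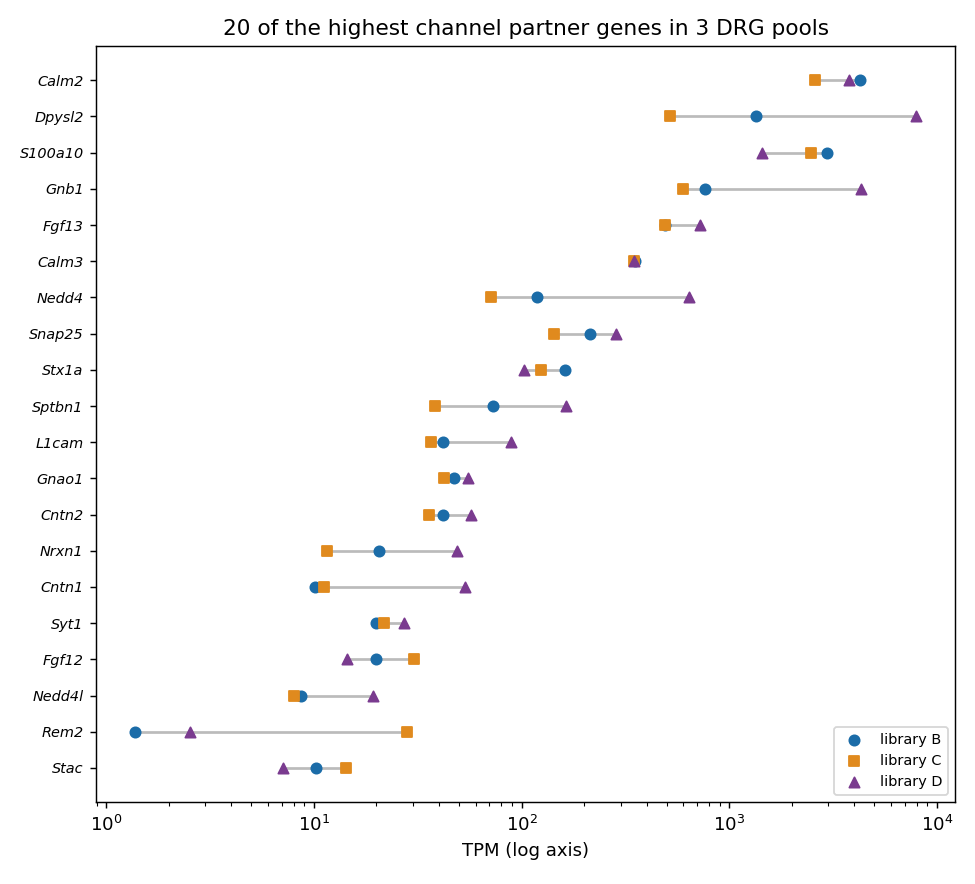
TPM of 20 of the highest genes of the partner list on a log axis, with circles, squares and triangles for libraries B, C and D and grey lines from lowest to highest. Dpysl2, Gnb1 and Nedd4 reach their highest values in D, and Rem2 is far higher in C than in B or D.

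Of the 48 partner genes tested, edgeR called 0 in D (0% of all genes), 1 in C (0.782% of all genes) and 0 in B (0% of all genes). At an unadjusted p under 0.05, 6 were higher and 7 lower in D, against 11.2% and 8.22% of all genes, and in B there was 1, against 1.11%. DESeq2 called 3 in D (6.38% of the genes it tested), 1 in C (1.4%) and 0 in B (0.00636%). In D, DESeq2 gave no adjusted p to some of the 48, among them Fgf14, Nalcn and the ryanodine receptor genes. Its count there is therefore out of fewer than 48. The gene called in C was Rem2, a small GTPase of the RGK family that binds Cav beta subunits and inhibits high-voltage-activated calcium channels. Library C held 380 counts of Rem2 (28.1 TPM), against 28 in B (1.38 TPM) and 44 in D (2.54 TPM). C stood far above both other libraries, with a log2 ratio of 4.32 ± 0.93 (approximate SE; edgeR adjusted p = 0.0027). Its call held with DESeq2, other size factors, no filter and the length trend removed (adjusted p = 0.00028 to 0.010). Rem2 and Cacnb3, the main beta subunit gene here, were both highest in C. This pairing was picked after the values were seen, and whether they are linked was not tested.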

How the data were processed

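RNA of 3 pools of sorted DRG cells was sequenced. The authors deposited raw read counts, CPM and RPKM per Ensembl gene for each library, with exon coordinates and a length per the file headers. Recomputed from the counts and lengths, the deposited CPM and RPKM came out the same within rounding. Subread, featureCounts 1.4.5 and the build GRCm38.p2 are listed, without roles, in the submitters' processing notes. The annotation release, strand setting and read filters are not stated.

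TPM was computed over all genes of a file, and symbols came from a GENCODE table that matched 40254 identifiers. Each library was set against the other pair with edgeR 4.0.16 (TMM, filterByExpr, quasi-likelihood test, Benjamini-Hochberg over all genes tested, threshold 0.05), and the approximate SE follows from the log2 ratio and its F statistic. These p-values measure only the spread between pools, which may be technical. Tested on simulated counts of D against B and C over 15727 genes, 97.5% of 200 genes changed 16-fold and 12.5% of 200 changed 4-fold were recovered. Whether these shares hold for the measured counts of D was not tested. Alternatives were other detection limits, CPM, libraries left out, DESeq2 (version 1.42.0) or its size factors, no filter, and a smooth trend in gene length (mgcv 1.9.3) as an offset.

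Zero counts were taken to allow 3 counts (0.166 CPM in B, 0.257 in C, 0.143 in D), for counting error only, since PCR reads without molecular identifiers can repeat a molecule. The members, the partner and marker lists and the naming rule were chosen with earlier results of these data known. By that rule, members with a mean of at least 10 TPM are given in every library and the other members by mean, range or count. Partner genes are named if among the 6 highest or past the threshold, and 1 of them is not reported here. Fgf11, Fgf12, Fgf14, Ank3, Nfasc, Sptbn4, Stac, Nalcn, Nedd4 and the ryanodine receptor genes were named outside it, after their values were seen. Coding windows came from the longest complete coding frame in GENCODE M21.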

Additional observations from a re-analysis of the deposited data

How the results depend on the processing

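Of 77 alternatives, 68 kept the result: a share could move by its SD between libraries, and a count by 1.5-fold. A median log2 ratio could move by the SD between libraries of the median log2 of TPM + 0.1 over all 38 members. That SD is of a level and not of the ratio itself. With 3 libraries, leaving one out cannot move the mean of a share by its SD. Those alternatives were therefore bound to be kept, and they say nothing on how firm the shares are. The 20 detected members became 11 at a limit of 5 TPM, all of them among the 20. With CPM in place of TPM, which leaves out length, the share of the tetrodotoxin-resistant genes moved from 2.27 to 1.25%, that of Cacna2d1 from 62.7 to 75.6% and that of Cacnb3 from 89.6 to 81.8%. Without a filter edgeR called 1 member in D, Cacnb3, in place of 0. The median log2 ratio of the tested members changed sign with the length trend removed in D (to -0.46), in C (from -0.26 to 0.043) and in B (from -0.18 to 0.089), and in B it ranged from -0.15 to 0.020 with a library left out (0.020 without D). Left out in turn, libraries gave -0.24 (without B) and -0.020 (without D) in C, and 0.24 (without B) and 0.15 (without C) in D. These stayed within the SD but moved the values by over 1.5 times without D in C and without B in D. The cause was not tested. The SD of the level that was allowed for a median ratio was 0.28, larger than the main median of every library, so a move to near 0 counted as kept. Values with the same library left out are a single contrast with opposite sign. Without D that contrast counted as kept in C (-0.020) and as changed in B (0.020). The alternatives for Rem2 were added after seeing the data. No paired analysis was possible because the libraries form a single group. Leaving out a library leaves no residual degree of freedom for edgeR's test, so those values carry no test. Depth limits the genes listed at 0 to the bounds given above.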
